A study of Mus musculus with 8 samples.

Results

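The mitosis genes described here are 47 genes of the deposited expression table whose symbols were taken as a list of cyclins, mitotic kinases, kinetochore and spindle proteins, condensin subunits and the proliferation marker Mki67. All 47 were in the table of 23302 entries, and all 47 were among the 13011 genes that passed the filter of a mean of at least 10 normalized counts over all libraries. RNA was measured by stranded mRNA sequencing in naive B cells from spleens of C57BL/6 mice, in 8 libraries that fell into 4 groups of 2. WT nontumor and WT tumor were mice of the WT genotype without and with a pancreatic tumor. EBi3KO nontumor and EBi3KO tumor were mice labelled B-EBi3-, without and with such a tumor. By that label their B cells lack Ebi3, a subunit of the cytokines IL-35 and IL-27. A tumor status of WT in the labels was read as no tumor, and every tumor comparison depends on that reading. In the sources used here, nothing was given on the age and sex of the mice, the driver of the deletion, the tumor model or the time after tumor onset. Whether the pair of libraries in a group stems from different animals is not stated, so p-values measure only the spread between libraries, which may be technical.

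Cells enter mitosis when CDK1 binds B-type cyclins, and they leave it when the anaphase promoting complex, switched on by CDC20, marks cyclins and securin for destruction. Between these steps condensin compacts chromosomes, kinetochores attach them to spindle microtubules, motor kinesins and Aurora and Polo-like kinases move and correct them, and the spindle checkpoint holds anaphase until every chromosome is attached. Most of these genes are transcribed mainly in late S phase, G2 and mitosis. In quiescent cells the DREAM complex represses them, and in cycling cells B-MYB and FOXM1 bound to the MuvB core activate them. Naive B cells of the spleen are mostly quiescent, whereas germinal center B cells and erythroid precursors of the mouse spleen divide.

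Depth ranged from 21291892 to 28297319 reads a library. Each of the 12 B cell markers examined was detected in every library, and together they took 2.14% to 2.51% of the reads. Ebi3 was read at 201 and 164 normalized counts in WT tumor and between 8.70 and 12.8 in the 6 other libraries, so its level did not separate the genotypes without a tumor. Both WT tumor libraries stood apart from the others: Xist was at 19758 and 26191 against 5.59 to 18.3 elsewhere, and the Y-linked Eif2s3y, Kdm5d and Uty were at 0, a female pattern where all other libraries had a male one. Their titles also carry the prefix IV, against OT for the rest. Any comparison that uses WT tumor therefore carries sex and prefix as well, and these cannot be told apart from the tumor or the genotype. Tumor against nontumor within EBi3KO, and EBi3KO against WT without a tumor, are free of both.

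Promoters of 6 members are shown because they carry the pair of elements through which the MuvB complexes and the factor NF-Y act on late cell cycle genes. They are the 6 with the highest mean level among members found to hold both elements. Only the 40 members with a promoter window could be searched, and Ccna2 was not among them. Each runs 5′ to 3′ on the gene's own strand, from 250 bases before the transcription start to 30 bases after it, from RefSeq on the GRCm38.p6 build. The windows lie at chr10:69352883-69353162 (minus strand) for the kinase Cdk1, chr9:70421525-70421804 (minus strand) for cyclin B2, chr5:30666636-30666915 (plus strand) for the centromeric histone Cenpa, chr6:125191557-125191836 (minus strand) for the condensin subunit Ncapd2, chr11:99024160-99024439 (minus strand) for topoisomerase Top2a and chr7:135716350-135716629 (minus strand) for Mki67. Capitals mark the cell cycle homology region (CHR, searched as TTTGAA or TTTAAA) and the CCAAT box. On the opposite strand they read TTCAAA and ATTGG.
Cdk1: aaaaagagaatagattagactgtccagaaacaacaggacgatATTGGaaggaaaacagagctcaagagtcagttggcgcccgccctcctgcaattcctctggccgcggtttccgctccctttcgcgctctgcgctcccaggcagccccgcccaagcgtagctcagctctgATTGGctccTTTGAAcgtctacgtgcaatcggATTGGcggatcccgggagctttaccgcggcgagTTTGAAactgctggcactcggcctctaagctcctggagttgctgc
Ccnb2: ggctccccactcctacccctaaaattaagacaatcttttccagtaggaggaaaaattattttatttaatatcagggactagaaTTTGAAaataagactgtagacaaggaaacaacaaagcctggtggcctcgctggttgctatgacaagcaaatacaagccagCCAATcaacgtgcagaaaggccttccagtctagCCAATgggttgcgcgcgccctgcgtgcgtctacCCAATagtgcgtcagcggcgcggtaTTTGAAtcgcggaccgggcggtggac
Cenpa: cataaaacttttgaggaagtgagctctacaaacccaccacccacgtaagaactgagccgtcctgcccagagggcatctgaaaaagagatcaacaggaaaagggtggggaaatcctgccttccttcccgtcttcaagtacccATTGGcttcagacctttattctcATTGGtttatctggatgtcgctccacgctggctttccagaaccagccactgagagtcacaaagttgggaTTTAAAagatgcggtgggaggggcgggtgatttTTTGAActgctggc
Ncapd2: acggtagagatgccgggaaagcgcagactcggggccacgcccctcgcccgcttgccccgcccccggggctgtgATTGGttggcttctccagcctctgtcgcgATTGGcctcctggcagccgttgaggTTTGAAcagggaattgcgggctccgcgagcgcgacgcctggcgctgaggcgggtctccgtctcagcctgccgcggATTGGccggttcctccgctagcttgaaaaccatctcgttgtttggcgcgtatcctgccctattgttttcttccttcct
Top2a: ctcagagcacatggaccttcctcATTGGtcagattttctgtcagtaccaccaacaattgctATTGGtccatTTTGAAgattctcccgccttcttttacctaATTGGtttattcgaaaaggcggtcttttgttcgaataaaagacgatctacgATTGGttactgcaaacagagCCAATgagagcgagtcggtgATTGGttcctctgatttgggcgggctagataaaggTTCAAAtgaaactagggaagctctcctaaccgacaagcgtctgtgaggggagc
Mki67: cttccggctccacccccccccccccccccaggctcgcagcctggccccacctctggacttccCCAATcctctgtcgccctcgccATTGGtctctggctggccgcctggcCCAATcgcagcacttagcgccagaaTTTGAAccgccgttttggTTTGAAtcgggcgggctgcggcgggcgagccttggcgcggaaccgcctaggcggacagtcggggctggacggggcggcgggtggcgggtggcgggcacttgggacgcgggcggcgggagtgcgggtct

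Of these genes Cdk1, Ccnb2, Cenpa and Ncapd2 were lower in every tumor library than in every nontumor one. Top2a overlapped between tumor and nontumor libraries, and Mki67 was highest in WT tumor. All 6 were chosen for holding both elements, so the presence of these letters says nothing about the direction. The CHR closest to the transcription start begins at position -15 in Cdk1, with 3 CCAAT boxes upstream of it, at -208, -80 and -48. In Mki67 the closest CHR begins at -98, and 3 CCAAT boxes lie upstream of it, from -188 to -141. Positions are counted from the start site, negative upstream.

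RefSeq windows of 300 bases (250 before to 50 after the start) were found for 40 of the 47 members, 42 windows in all. A CHR on either strand was present in 35 of the 42 windows (83.3%), against 27.6% of all 32851 mouse windows of that length and 19.7% of the 12211 windows of tested genes. CCAAT was present in 31 (73.8%), against 37.4% and 37.9%. Both stood in 30 windows (71.4%), against 10.7% and 7.71%, and 22 windows (52.4%) held 2 or more CCAAT boxes, against 11.7% and 14.1%. An E2F element (TTTCCCGC, TTTCGCGC, TTTGCCGC or TTTGGCGC on either strand, with no other motif counted in it) was found in 4 windows (9.52%), against 2.27% and 3.79%. The 28 members with both CHR and CCAAT had a median tumor effect of -0.95 on the log2 scale in WT and -1.14 in EBi3KO. For the 12 members without the pair the medians were -1.23 and -1.11. A match is a description of the letters in this window and not a measured binding site.

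With a tumor, most mitosis genes were lower in both genotypes. In WT 38 of the 47 were lower, 5 were higher (Mki67, Cenpe, Cenpf, Hmmr and Aspm) and 4 did not pass the threshold (Top2a, Kif15, Kif23 and Ndc80), at a limma adjusted p under 0.05. Among all 13011 tested genes 40.1% were lower and 39.6% were higher in that comparison, so the share of members that fell was above the background and the share that rose was below it. In EBi3KO 42 of 47 were lower, 1 was higher (Cenpe), and Cenpf, Ndc80, Hmmr and Aspm did not pass, against a background of 18.5% lower and 14.1% higher. The median log2 difference of the members was -1.24 in WT and -1.16 in EBi3KO, and that of all tested genes was 0.01 and -0.01. The same 38 members that fell in WT also fell in EBi3KO. For 39 of the 47 members all 4 tumor libraries lay below all 4 nontumor libraries, an arrangement found for 31.3% of tested genes. The members together took 0.106% and 0.124% of the reads in WT nontumor and 0.115% and 0.125% in EBi3KO nontumor, against 0.0725% and 0.0761% in WT tumor and 0.0642% and 0.0628% in EBi3KO tumor. In such bulk samples, fewer dividing cells and less of these RNAs in each cell cannot be told apart.

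**Figure D1:**
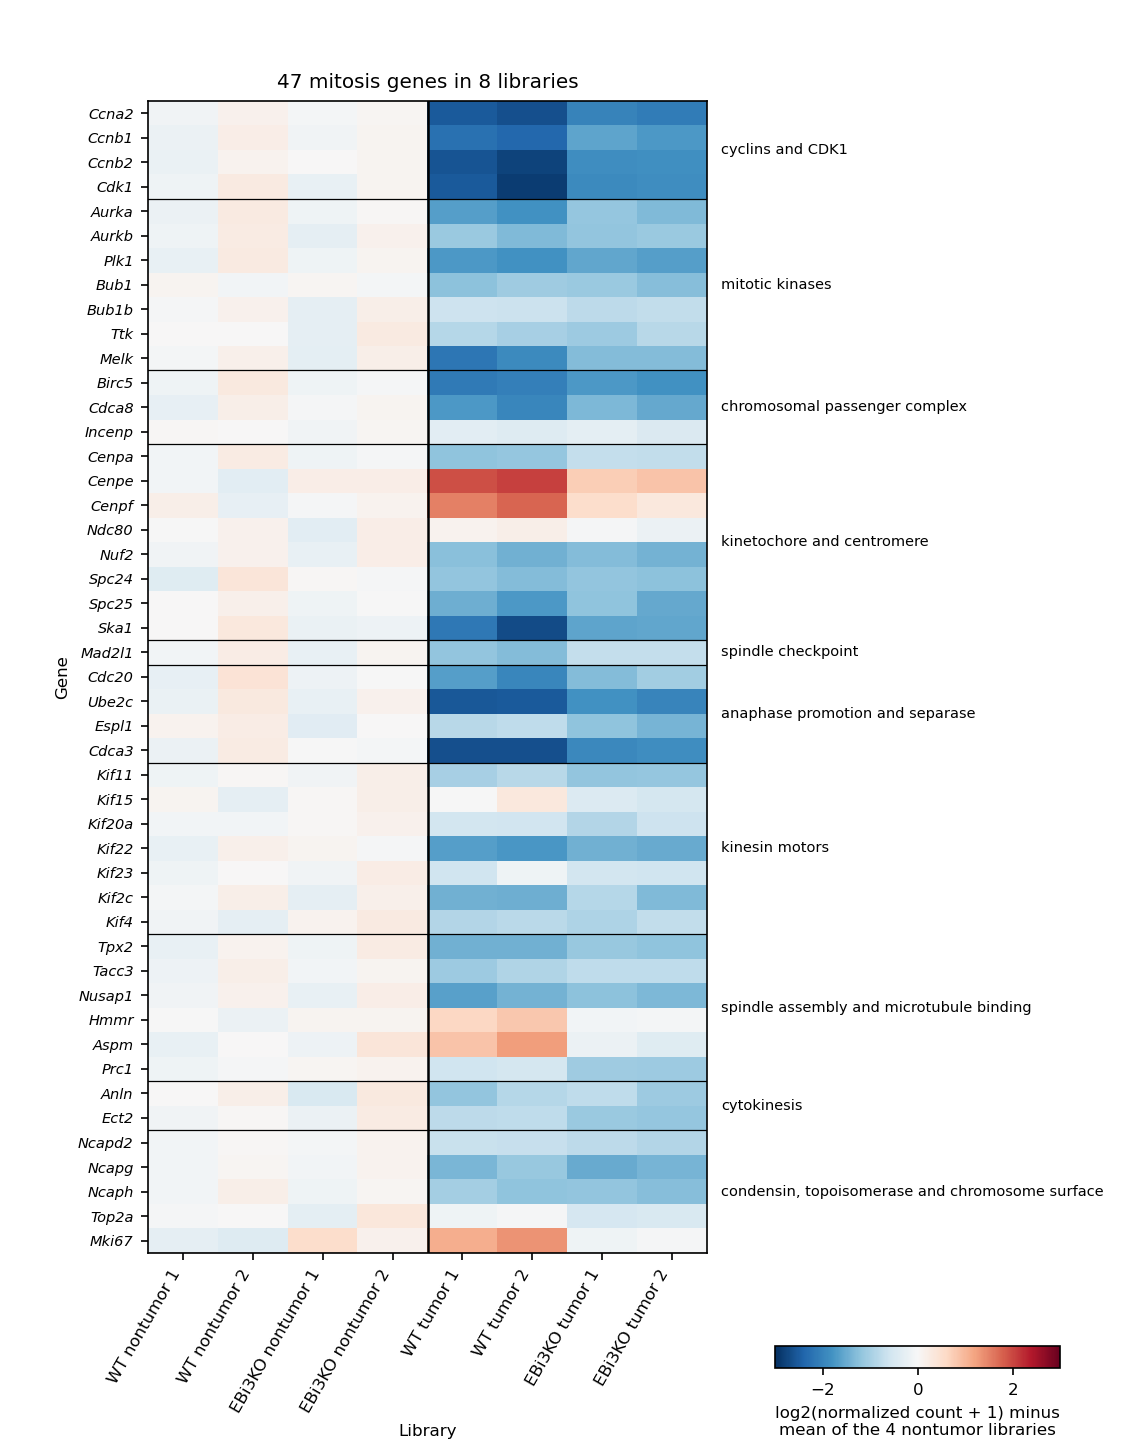
Heat map of the 47 mitosis genes (y axis, grouped by role, each gene placed in the first role that holds it) in the 8 libraries (x axis). Colour is log2 of the normalized count plus 1, minus the mean of the 4 nontumor libraries of that gene. The tumor libraries right of the black line are mostly blue (lower), while Mki67, Cenpe, Cenpf, Hmmr and Aspm are red in WT tumor. Cenpe and Cenpf are pale red in EBi3KO tumor. Against EBi3KO nontumor alone, which is not the zero of the colours, their log2 differences were 0.60 and 0.39 (the latter not past the threshold).

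The cyclins and CDK1, which form the kinases that start mitosis, had the lowest median differences of the 10 roles (-2.62 in WT and -1.84 in EBi3KO), and all 4 fell in both genotypes. Cyclin A2 (Ccna2), which acts from S phase to early mitosis, stood at 2457 and 2886 normalized counts in WT nontumor and 2541 and 2740.4 in EBi3KO nontumor, against 459 and 427 in WT tumor and 656 and 618 in EBi3KO tumor. Its 4 tumor libraries lay far below the 4 nontumor ones, with WT tumor below EBi3KO tumor. The log2 difference was -2.59 (SE 0.0977, adjusted p = 2.08e-07) in WT and -2.05 (SE 0.0977, adjusted p = 7.13e-06) in EBi3KO. Cdk1, the catalytic partner of the mitotic cyclins, stood at 1214 and 1624 normalized counts in WT nontumor and 1141 and 1426 in EBi3KO nontumor, against 231 and 184 in WT tumor and 358 and 369 in EBi3KO tumor. This was a fall of the mean by 6.84-fold in WT and 3.53-fold in EBi3KO, with log2 differences of -2.76 (adjusted p = 1.95e-06) and -1.81 (adjusted p = 0.000248). Cyclin B1 (Ccnb1), the main activator of CDK1 at mitotic entry, stood at 974 and 1269 normalized counts in WT nontumor and 1018 and 1159 in EBi3KO nontumor, against 232 and 215 in WT tumor and 368 and 335 in EBi3KO tumor, with log2 differences of -2.31 and -1.63. Cyclin B2 (Ccnb2), its relative at the Golgi apparatus, stood at 1096 and 1348 normalized counts in WT nontumor and 1252 and 1312 in EBi3KO nontumor, against 205 and 180.1 in WT tumor and 344 and 350.1 in EBi3KO tumor, with log2 differences of -2.66 and -1.88. For all 4 genes the order of the groups was the same: both nontumor groups overlapped at the top, EBi3KO tumor lay below them, and WT tumor was lowest without overlap.

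**Figure D2:**
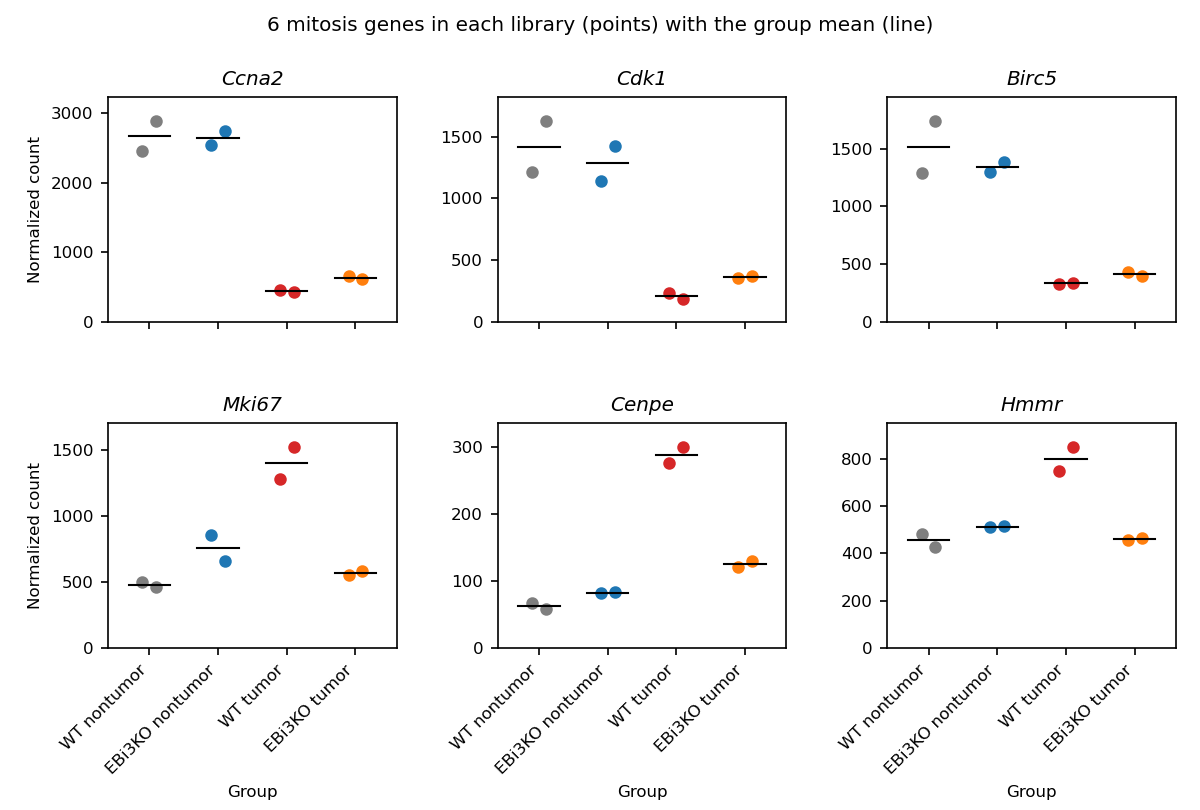
Normalized counts (y axis, from 0) of 6 members in the 4 groups (x axis), with 1 point a library and a line at the group mean. Ccna2, Cdk1 and Birc5 are lower in all 4 tumor libraries, whereas Mki67, Cenpe and Hmmr are highest in both WT tumor libraries. The 2 libraries of EBi3KO tumor lie close together in each panel.

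Of the 7 mitotic kinases, all 7 fell in WT (median log2 difference -1.29) and all 7 in EBi3KO (median -1.19). Polo-like kinase 1 (Plk1), which drives centrosome maturation and mitotic entry, stood at 477 and 671 normalized counts in WT nontumor and 506 and 588 in EBi3KO nontumor, against 167 and 157 in WT tumor and 189 and 175 in EBi3KO tumor. The tumor libraries of both genotypes were close to each other and below every nontumor library, with log2 differences of -1.80 (adjusted p = 1.36e-05) in WT and -1.58 (adjusted p = 0.000458) in EBi3KO. Aurora A (Aurka), the kinase of spindle poles, stood at 527 and 724 normalized counts in WT nontumor and 547 and 618 in EBi3KO nontumor, against 191 and 168 in WT tumor and 269 and 238 in EBi3KO tumor. Its log2 differences were -1.78 (adjusted p = 1.33e-05) and -1.20 (adjusted p = 0.00166), with no overlap between tumor and nontumor libraries. Melk, a kinase of the AMPK family that peaks in dividing cells, fell further in WT, from a mean of 292 ± 29.9 to 67.9 ± 8.48 normalized counts (SD, n = 2 each), than in EBi3KO, from 274 ± 62.5 to 113 ± 0.408. The difference between these effects was 0.84 (adjusted p = 0.0249) on the log2 scale, a call lost in 6 of 22 alternative settings. Bub1b, which encodes the checkpoint kinase BubR1, had the smallest fall of the 7 in both genotypes (-0.67 and -0.72).

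The chromosomal passenger complex corrects faulty attachments at centromeres and later acts in cytokinesis. Its 4 subunits all fell in both genotypes (median -1.55 in WT and -1.28 in EBi3KO), but by unequal amounts. Survivin (Birc5) stood at 1284 and 1735 normalized counts in WT nontumor and 1293 and 1379 in EBi3KO nontumor, against 326 and 341 in WT tumor and 429.7 and 401 in EBi3KO tumor. Its log2 differences were -2.16 (SE 0.134, adjusted p = 2.05e-06) in WT and -1.68 (SE 0.134, adjusted p = 0.000102) in EBi3KO. Incenp, the scaffold on which the complex assembles, stood at 787 and 778 normalized counts in WT nontumor and 709 and 804 in EBi3KO nontumor, against 613 and 588 in WT tumor and 628 and 566 in EBi3KO tumor. No tumor library reached the lowest nontumor one, but the falls were small, at -0.38 (adjusted p = 0.00557) and -0.34 (adjusted p = 0.0306), and the call in EBi3KO was lost in 9 of 21 alternative settings. Borealin (Cdca8) and Aurora B (Aurkb), the kinase of the complex, lay between, at -1.82 and -1.29 in WT and -1.47 and -1.08 in EBi3KO.

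Kinetochore and centromere genes split: of 8, 5 fell in each genotype, Cenpe and Cenpf rose in WT, Cenpe rose in EBi3KO, and Ndc80 passed in neither. Cenpe, a kinesin that carries chromosomes along microtubules to the spindle equator, stood at 67.1 and 57.6 normalized counts in WT nontumor and 81.8 and 82.8 in EBi3KO nontumor, against 276 and 299 in WT tumor and 121 and 129 in EBi3KO tumor. Every tumor library exceeded every nontumor one, and both WT tumor libraries exceeded both EBi3KO tumor ones. The mean rose 4.61-fold in WT (2.19 (SE 0.153, adjusted p = 3.49e-06) on the log2 scale) and 1.52-fold in EBi3KO (0.60 (SE 0.153, adjusted p = 0.0216)), where the call was lost in 6 of 21 alternative settings. Cenpf, a large coiled-coil protein of the outer kinetochore, stood at 64.8 and 48.0 normalized counts in WT nontumor and 56.2 and 61.1 in EBi3KO nontumor, against 165 and 193 in WT tumor and 83.5 and 71.5 in EBi3KO tumor. It rose in WT by 1.66 (adjusted p = 7.97e-05), and the difference in EBi3KO was 0.39 (adjusted p = 0.164), although both EBi3KO tumor libraries lay above both EBi3KO nontumor ones. The NDC80 complex, which grips microtubule ends, has 4 subunits, all members. Nuf2 (-1.36 and -1.34), Spc24 (-1.24 and -1.21) and Spc25 (-1.68 and -1.30) fell in WT and EBi3KO. The subunit that names the complex did not: Ndc80 stood at 379 and 413 normalized counts in WT nontumor and 305 and 438 in EBi3KO nontumor, against 409.7 and 433 in WT tumor and 374 and 338 in EBi3KO tumor, with log2 differences of 0.09 (adjusted p = 0.623) and -0.04 (adjusted p = 0.8604). Ska1, which helps the complex track shortening microtubules, stood at 169 and 209 normalized counts in WT nontumor and 146 and 149 in EBi3KO nontumor, against 36.5 and 25.2 in WT tumor and 54.8 and 55.9 in EBi3KO tumor, with log2 differences of -2.59 (adjusted p = 8.13e-06) in WT and -1.40 (adjusted p = 0.00305) in EBi3KO. Cenpa, the histone that marks centromeres, stood at 1611 and 2029 normalized counts in WT nontumor and 1568 and 1658 in EBi3KO nontumor, against 738 and 764 in WT tumor and 1046 and 1029 in EBi3KO tumor. Its 3 tiers did not overlap: nontumor highest, EBi3KO tumor in the middle and WT tumor lowest, with log2 differences of -0.63 in EBi3KO and -1.27 in WT.

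The spindle checkpoint genes Mad2l1, Bub1, Bub1b and Ttk all fell in both genotypes (median -1.04 in WT and -0.84 in EBi3KO). In EBi3KO the calls of Mad2l1 and Ttk were each lost in 4 of 21 alternative settings and that of Bub1b in 3. Mad2l1, which encodes the inhibitor MAD2 that binds CDC20, stood at 1395 and 1706 normalized counts in WT nontumor and 1268 and 1545 in EBi3KO nontumor, against 646 and 597 in WT tumor and 896 and 899 in EBi3KO tumor, again with WT tumor lowest and EBi3KO tumor between it and the nontumor groups. Its log2 differences were -1.31 (adjusted p = 1.57e-05) in WT and -0.64 (adjusted p = 0.00829) in EBi3KO. Bub1, by contrast, reached nearly the same level in both tumor groups, at 148 and 167 in WT and 161 and 145 in EBi3KO, from 369 and 331 and 365 and 336 without a tumor. The kinase Ttk, known as MPS1, was lower in both tumor groups as well, with log2 differences of -0.94 and -0.96. Among the genes that open anaphase, Cdc20, the activator of the anaphase promoting complex, stood at 647 and 1018 normalized counts in WT nontumor and 691 and 755 in EBi3KO nontumor, against 241 and 197 in WT tumor and 308 and 368 in EBi3KO tumor, with log2 differences of -1.89 (adjusted p = 3.49e-05) and -1.10 (adjusted p = 0.00716), the latter call lost in 3 of 21 alternative settings. Ube2c, the ubiquitin-conjugating enzyme of that complex, stood at 881 and 1225 normalized counts in WT nontumor and 868 and 1091 in EBi3KO nontumor, against 172 and 175 in WT tumor and 285 and 256 in EBi3KO tumor, a log2 difference of -2.58 (adjusted p = 2.58e-06) in WT and -1.84 (adjusted p = 0.0002104) in EBi3KO. Cdca3, which helps degrade the CDK1 inhibitor WEE1, fell 6.44-fold in WT and 3.64-fold in EBi3KO (-2.67 and -1.86 on the log2 scale). Separase (Espl1), the protease that cuts cohesin, had log2 differences of -0.96 in WT and -1.13 in EBi3KO.

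Of the 8 kinesin motors 5 fell and Cenpe rose in WT, and 7 fell and Cenpe rose in EBi3KO (medians -0.57 and -0.92). Kif22, which pushes chromosome arms toward the equator, stood at 560.1 and 729.8 normalized counts in WT nontumor and 695 and 641 in EBi3KO nontumor, against 206 and 193 in WT tumor and 239 and 229 in EBi3KO tumor, with log2 differences of -1.68 (adjusted p = 6.99e-06) and -1.51 (adjusted p = 0.0002002). Kif11, the kinesin-5 that separates spindle poles, stood at 749 and 837 normalized counts in WT nontumor and 759 and 923 in EBi3KO nontumor, against 405 and 460.1 in WT tumor and 360.1 and 362 in EBi3KO tumor. Both tumor groups lay below both nontumor groups, with log2 differences of -0.87 in WT and -1.21 in EBi3KO. Kif15, which can share the work of Kif11 in holding the spindle bipolar, stood at 219 and 171 normalized counts in WT nontumor and 212 and 234 in EBi3KO nontumor, against 206 and 257 in WT tumor and 157 and 145 in EBi3KO tumor. Its WT groups overlapped (0.25 (adjusted p = 0.197)), while both EBi3KO tumor libraries were below both EBi3KO nontumor ones (-0.56 (adjusted p = 0.0343)), a call lost in 8 of 21 alternative settings. Kif2c, the depolymerase known as MCAK, differed by -1.52 and -1.03, Kif4, the chromokinesin of the anaphase midzone, by -0.65 and -1.02, and Kif20a, a motor of the central spindle, by -0.49 and -0.82.

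Spindle assembly genes also went in both directions in WT, where 4 of 6 fell and Hmmr and Aspm rose, while in EBi3KO 4 fell and those same 2 did not pass. Tpx2, which targets Aurora A to the spindle, stood at 578 and 722 normalized counts in WT nontumor and 621 and 801 in EBi3KO nontumor, against 249 and 247 in WT tumor and 305 and 291 in EBi3KO tumor, with log2 differences of -1.38 (adjusted p = 3.24e-05) and -1.24 (adjusted p = 0.000845). Hmmr, a microtubule-binding protein that is also the hyaluronan receptor RHAMM, stood at 482 and 429 normalized counts in WT nontumor and 511 and 514 in EBi3KO nontumor, against 749 and 849 in WT tumor and 458 and 465 in EBi3KO tumor. WT tumor was above all other libraries, which lay between 429 and 514, and the log2 difference was 0.81 (SE 0.101, adjusted p = 8.52e-05) in WT and -0.15 (adjusted p = 0.262) in EBi3KO. Aspm, which holds microtubules at spindle poles, stood at 53.7 and 63.1 normalized counts in WT nontumor and 56.2 and 81.5 in EBi3KO nontumor, against 114 and 152 in WT tumor and 55.7 and 48.6 in EBi3KO tumor. Only the WT tumor libraries stood clear of the rest, with log2 differences of 1.16 (adjusted p = 0.00196) in WT and -0.37 (adjusted p = 0.254) in EBi3KO. Prc1, which bundles microtubules of the central spindle, stood at 474 and 501 normalized counts in WT nontumor and 540.5 and 556 in EBi3KO nontumor, against 344 and 357 in WT tumor and 248 and 243 in EBi3KO tumor. It fell more in EBi3KO (-1.16 (adjusted p = 0.000115)) than in WT (-0.47 (adjusted p = 0.00142)), and these effects differed by -0.68 (adjusted p = 0.00321). Nusap1 (-1.54 and -1.28) and Tacc3 (-0.999 and -0.75), which stabilise spindle microtubules, fell in both genotypes. All 5 cytokinesis genes fell in EBi3KO and 4 in WT, where the centralspindlin motor Kif23 differed by -0.31 (adjusted p = 0.123). Among them Ect2, the exchange factor that switches on RhoA at the cleavage furrow, had log2 differences of -0.74 in WT and -1.17 in EBi3KO, and Anln, the scaffold of the contractile ring, of -1.11 and -0.84. The Anln call in EBi3KO was lost in 10 of 21 alternative settings.

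The condensin I subunits Ncapd2, Ncapg and Ncaph, which compact chromosomes, fell in both genotypes. Ncapd2 stood at 1996 and 2141 normalized counts in WT nontumor and 2021 and 2255 in EBi3KO nontumor, against 1328 and 1298 in WT tumor and 1212 and 1138 in EBi3KO tumor, with log2 differences of -0.65 (adjusted p = 8.91e-05) and -0.86 (adjusted p = 0.000282). Ncapg differed by -1.25 and -1.46 and Ncaph by -1.16 and -1.19. Top2a, the topoisomerase that untangles sister chromatids, stood at 1424 and 1479 normalized counts in WT nontumor and 1188 and 1848 in EBi3KO nontumor, against 1340.4 and 1420.4 in WT tumor and 1027 and 1061 in EBi3KO tumor. The WT groups overlapped (-0.07 (adjusted p = 0.702)), and the spread in EBi3KO nontumor was wide. Both EBi3KO tumor libraries lay below every other library (-0.50 (adjusted p = 0.0498)), but this call was lost in 12 of 21 alternative settings, and without EBi3KO nontumor replicate 2 the difference was -0.19.

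Mki67, which encodes the Ki-67 protein that coats mitotic chromosomes and is widely stained as a marker of cycling cells, was among the 5 members that rose in WT. It stood at 497 and 459.6 normalized counts in WT nontumor and 859 and 661 in EBi3KO nontumor, against 1282 and 1523 in WT tumor and 551 and 581 in EBi3KO tumor. Both WT tumor libraries were above all others, WT nontumor was lowest, and EBi3KO tumor lay between WT nontumor and EBi3KO nontumor without overlap. The mean rose 2.93-fold with a tumor in WT, a log2 difference of 1.54 (SE 0.137, adjusted p = 1.12e-05). In EBi3KO it was lower by a log2 difference of -0.41 (SE 0.137, adjusted p = 0.0476), a call lost in 9 of 21 alternative settings; without EBi3KO nontumor replicate 1 it was -0.22 (adjusted p = 0.192). The difference between both tumor effects was -1.96 (SE 0.193, adjusted p = 0.000209) on the log2 scale, past the threshold in each of 22 alternative settings, where it ranged from -2.15 to -1.04. The WT tumor libraries thus held more Mki67 and less Cdk1, Ccnb1 and Ccna2 than any nontumor library.

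Without a tumor the genotypes were close. Of the 47 members 0 were lower and 0 higher in EBi3KO than in WT, as among all tested genes (0 of 13011 in either direction, a background of 0% lower and 0% higher in limma and 0 members in edgeR, although 1049 genes, among them 3 members, had an unadjusted p under 0.05). The members' log2 differences ran from -0.35 (Ska1) to 0.65 (Mki67), with a median of -0.02. For Mki67 both EBi3KO nontumor libraries exceeded both WT nontumor ones, with a ratio of means of 1.59 and a limma adjusted p of 0.451. DESeq2 gave 0.66 with an adjusted p of 0.0327, and edgeR an adjusted p of 0.489. Over all genes DESeq2 called 11 higher and 10 lower of 11245 in this comparison. The other members with an unadjusted p under 0.05 were Kif4 (0.37 (adjusted p = 0.604)) and Cenpe (0.40 (adjusted p = 0.604)).

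In tumor mice 8 members were lower and 12 were higher in EBi3KO than in WT, against a background of 28.6% lower and 31.9% higher, both above the members' shares. The 8 lower were Mki67 (-1.30), Aspm (-1.32), Cenpf (-1.20), Cenpe (-1.19), Hmmr (-0.79), Kif15 (-0.61), Prc1 (-0.51) and Espl1 (-0.50), of which Espl1 lost its call in 7 and Kif15 in 4 of 23 alternative settings. Among the 12 higher were all 4 cyclin and CDK1 genes, from 0.52 for Ccna2 to 0.85 for Ccnb2, along with Ska1 (0.85), Cdca3 (0.74) and Melk (0.74). Aurka and Cdc20, also among the 12, each lost their call in 7 of 23 alternative settings. The tumor effect itself differed between genotypes for 18 members: 7 had a lower effect in EBi3KO and 11 a higher one, against a background of 25.4% and 27.5%. A higher value here means a smaller fall, as for Cdk1 (0.95 (adjusted p = 0.0102)) and Ska1 (1.19 (adjusted p = 0.0108)). Lower values belong to the genes that rose in WT, such as Cenpe (-1.59 (adjusted p = 0.000678)) and Hmmr (-0.96 (adjusted p = 0.000977)), and to Kif15 (-0.81) and Prc1 (-0.68). Of the 18 calls, those of Cdc20 (lost in 12 of 22 alternative settings), Ube2c (11), Melk (6), Kif15 (5) and Ccnb1 (4) depended most on the setting. The 11 higher calls became fewer without EBi3KO tumor replicate 1 and without EBi3KO nontumor replicate 1, as did those over all tested genes. Across the 47 members the tumor effects of both genotypes, which share no library, had a Pearson r of 0.91 and a Spearman rho of 0.88, given as a description over genes that are not independent.

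**Figure D3:**
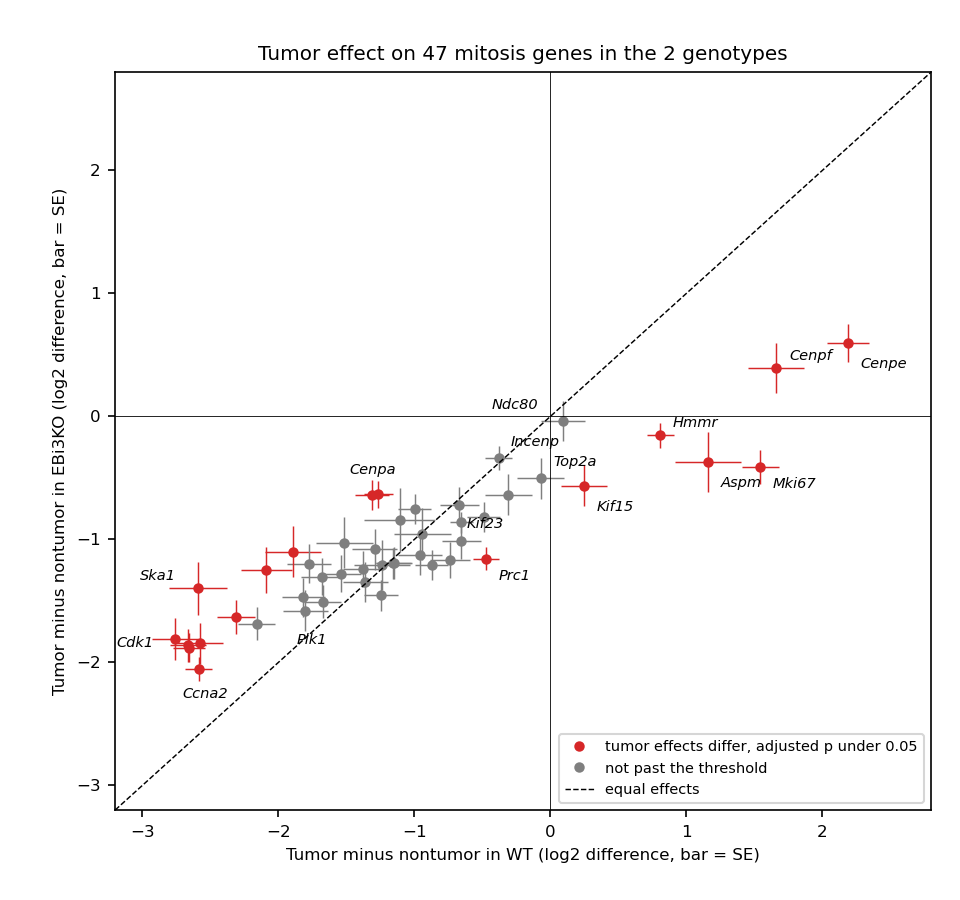
Tumor minus nontumor log2 difference of each of the 47 members in WT (x axis) and in EBi3KO (y axis), with limma standard errors as bars. Red points are the 18 members whose effects differ between genotypes, and the dashed line marks equal effects. Points at the far left lie above the line (Cdk1 at -2.76 and -1.81), while some nearer the middle lie below it (Ncapg at -1.25 and -1.46). Mki67, Cenpe, Cenpf, Hmmr and Aspm lie below it at the right.

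Levels of different genes can be compared only per transcript length. Per kilobase, the most abundant member in WT nontumor was Birc5 at 1594 normalized counts per kb, followed by Cenpa at 1241 and Ube2c at 1089. The lowest were Cenpf at 5.07, Aspm at 5.92 and Cenpe at 7.88, which are 3 of the 5 that rose in WT. In WT tumor the order at the top changed: Cenpa was at 513, Birc5 at 352, Ncapd2 at 284 and Top2a at 264. Mki67 moved from 47.6 to 139 per kb, and Cdk1 from 324 to 47.4. These per-length values rest on 1 annotated transcript a gene.

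The members that rose in WT have long transcripts: 11130 bases for Cenpf, 10061 for Mki67, 9867 for Aspm, 7910 for Cenpe and 3892 for Hmmr, against a median of 2885 for the 38 that fell. Over the 47 members the tumor effect in WT had a Spearman rho of 0.66 with transcript length, and that in EBi3KO 0.56. Over 12868 tested genes with a known length the rho was 0.44 and 0.25, so longer transcripts were higher in tumor libraries generally. When the trend of each library with length and GC content was taken out, the rho of the members fell to 0.21 in WT and 0.41 in EBi3KO. The main direction stayed, with 41 members lower in WT and 43 in EBi3KO. Of all 12868 genes with a known length, 4850 were lower in WT and 2447 in EBi3KO after this removal. The rises of the members shrank. Mki67 went from 1.54 to 0.39 in WT (adjusted p = 0.01098), Cenpe from 2.19 to 1.19 and Hmmr from 0.81 to 0.34, all 3 still higher. Cenpf, at 0.36 (adjusted p = 0.0904), and Aspm, at -0.02 (adjusted p = 0.959), were no longer past the threshold, while Top2a (-0.73), Kif15 (-0.37) and Kif23 (-0.61) became lower. Mad2l1 (annotated at 7557 bases) and Espl1 (6658 bases) fell with and without the trend. These lengths rest on 1 annotated transcript a gene, and the part of length in the rises was not tested. The difference of Mki67 between genotypes remained past the threshold after removal, at -1.04 (adjusted p = 0.00189).

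**Figure D4:**
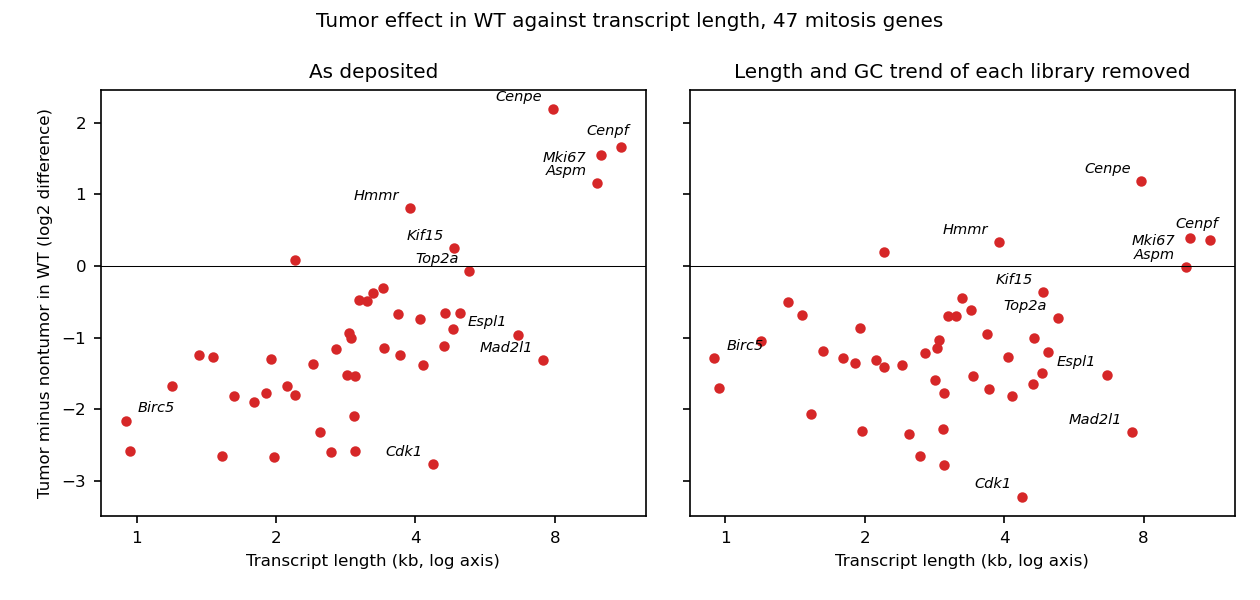
Tumor minus nontumor log2 difference in WT (y axis) against transcript length in kb (x axis, log scale) for the 47 members, as deposited (left) and after removing each library's trend on length and GC content (right). On the left the longest members, Cenpf, Mki67, Aspm and Cenpe, lie between 1.16 and 2.19. On the right they lie between -0.02 and 1.19, and Cdk1 stays at the bottom of both panels.

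Other genes of the cell cycle were read from lists of related complexes. Their counts stand against the background of all tested genes given above, 40.1% lower and 39.6% higher in WT and 18.5% lower and 14.1% higher in EBi3KO. Of 46 DNA replication genes 42 were lower and 3 higher in WT (median -1.30), and 41 lower and 0 higher in EBi3KO (median -0.97). Rrm2, the small subunit of ribonucleotide reductase, stood at -3.27 in WT and -2.55 in EBi3KO on the log2 scale, and Cdc6, which loads the replicative helicase, at -3.03 in WT and -2.53 in EBi3KO. Among 49 other late cell cycle genes 33 were lower and 5 higher in WT, and 37 lower and 1 higher in EBi3KO, with the kinase Pbk at -3.17 and -2.21. Of 26 further centromere and kinetochore genes 16 fell in each genotype, 5 rose in WT and 0 in EBi3KO. Cohesin, which is needed in all cells to hold and fold chromatin, differed: 11 of 16 genes rose and 4 fell in WT, and 2 rose and 3 fell in EBi3KO. The 4 that fell in WT included Esco2 (-1.75), Cdca5 (-1.83) and Sgol1 (-1.21), regulators tied to S phase and mitosis, while Pds5a was at 1.90. Among 23 regulators of the DREAM, MuvB and FOXM1 system 9 fell and 8 rose in WT, shares near the background (39.1% and 34.8%), and 11 fell and 3 rose in EBi3KO. Mybl2, which encodes B-MYB, was at -1.89 in WT and -1.45 in EBi3KO, E2f8, a repressor of S phase genes, at -1.97 in WT and -2.37 in EBi3KO, and Nfya, a subunit of the CCAAT-binding factor, at 1.002 in WT and 0.31 in EBi3KO. Of 14 tested G1 cyclins, CDKs and CDK inhibitors 9 fell and 3 rose in WT, and 7 fell and 1 rose in EBi3KO, with cyclin E2 (Ccne2) at -2.97 in WT and -2.91 in EBi3KO. The remaining spindle checkpoint genes counted 5 of 9 lower in each genotype, and 1 and 0 higher. Core subunits of the anaphase promoting complex and its partners counted 11 of 17 lower and 3 higher in WT, and 7 lower and 0 higher in EBi3KO. The remaining condensin subunits were split in WT, with 2 of 5 lower and 2 higher, and counted 4 lower and 0 higher in EBi3KO.

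Markers of other cells were read in the same way, and not all lists moved with the mitosis genes. Their counts stand against the same background (40.1% lower and 39.6% higher in WT, 18.5% and 14.1% in EBi3KO). All 15 erythroid genes were lower with a tumor in both genotypes, at medians of -4.03 and -2.79 on the log2 scale. Erythroid genes took 0.804% and 0.752% of the reads in WT nontumor and 1.26% and 1.79% in EBi3KO nontumor, against 0.135% and 0.1003% and 0.332% and 0.341% with a tumor. The erythroid share was thus higher in EBi3KO nontumor than in WT nontumor, while the shares of mitosis genes in those groups overlapped. Monocyte and macrophage genes were lower for 12 of 12 in WT and 10 of 12 in EBi3KO, and granulocyte genes for 11 of 11 and 9 of 11. T cell (7 of 10), NK cell (8 of 9) and platelet genes (7 of 8) were lower in WT, but in EBi3KO 1, 0 and 0 were. None of these 3 lists had a higher gene in WT, and in EBi3KO 2 T cell genes were higher. Germinal center genes, from B cells that divide, took 0.009798% and 0.0216% in WT nontumor and 0.0109% and 0.0196% in EBi3KO nontumor, against 0.0196% and 0.01998% in WT tumor and 0.0146% and 0.0144% in EBi3KO tumor. Of these 9 genes 0 passed the threshold as lower in either genotype, although their median log2 difference was -0.60 in WT and -0.22 in EBi3KO. In WT 2 rose, Bcl6 (0.72) and Mybl1 (2.20). The share of this list differed widely within both nontumor pairs, so a fall or its absence cannot be read from these counts. Progenitor genes were lower for 4 of 6 and higher for 1 in WT, with Kit at -1.79, and for 0 of 6 in EBi3KO, where Kit was at -0.04. Plasma cell genes counted 5 lower and 1 higher of 8 in WT and 1 lower and 6 higher in EBi3KO, and B cell genes counted 3 lower and 7 higher of 12 in WT and 0 and 2 in EBi3KO. No gene of these lists was at 0 in every library of any group. The part of these cells in the fall of the mitosis genes was not tested.

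**Figure D5:**
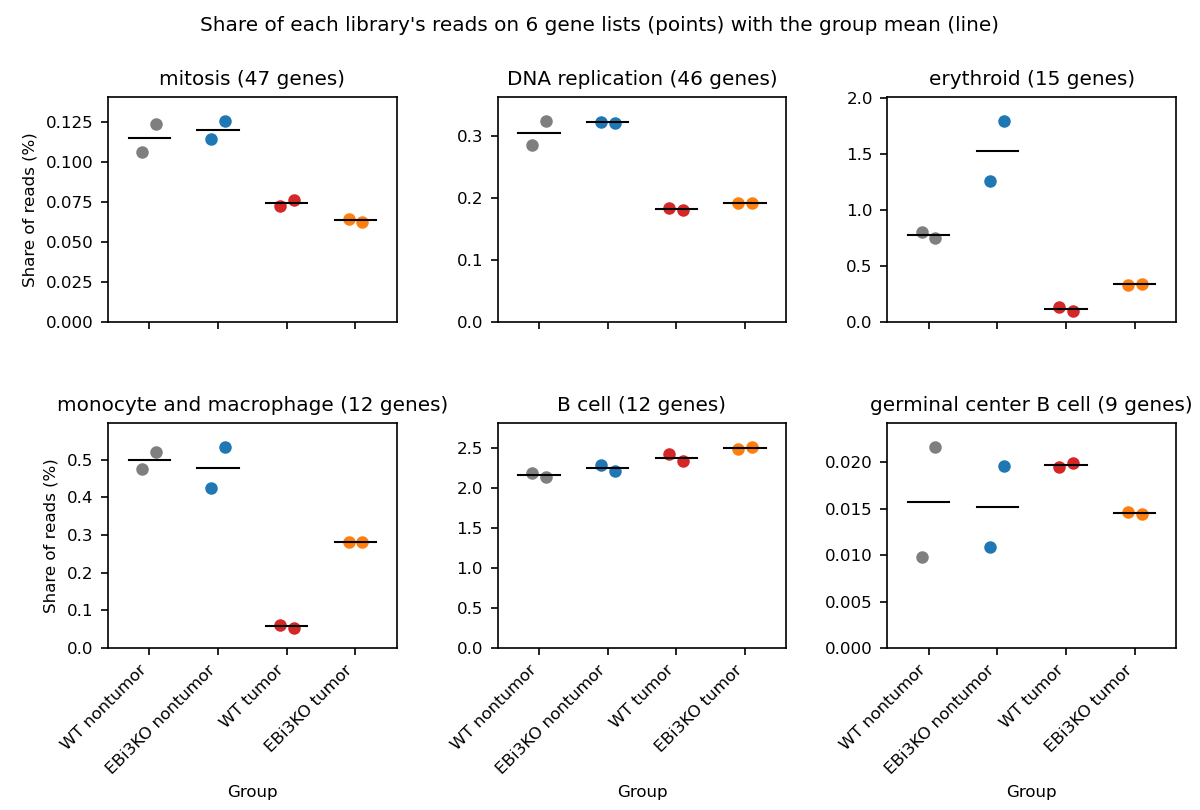
Share of each library's reads (y axis, percent, from 0) on the 47 mitosis genes and on 5 other gene lists, by group (x axis), with 1 point a library and a line at the group mean. Mitosis, DNA replication, erythroid and macrophage shares are lower in all 4 tumor libraries than in the nontumor ones. B cell shares are slightly higher there, and germinal center shares overlap.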

How the data were processed

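RNA of naive splenic B cells was sequenced in 8 libraries of 4 groups, each of 2. The submitters' processing notes name Salmon, DESeq2 and the build mm10, without the role of each; no version was found for either tool. The authors deposited a table of counts with gene symbols, which its name calls normalized by DESeq2 (unit signal), and 0 of its columns were left unused. Dividing each library by its smallest step gave whole reads for 100% of values (tolerance 0.01), 21291892 to 28297319 a library.

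The 13011 of 23302 entries with a mean of at least 10 were tested on log2(value + 1) with limma 3.58.1 in R 4.3.3, with 1 mean a group and a prior variance that follows the mean (degrees of freedom: 4 residual, 4.64 prior). Tests are two-sided, with Benjamini-Hochberg adjustment over all tested genes within each of 5 comparisons: tumor against nontumor in WT and in EBi3KO, EBi3KO against WT in nontumor and in tumor mice, and the interaction (how far the tumor effect in EBi3KO exceeds the one in WT). A log2 difference understates the change of genes with low counts. Genes with an adjusted p under 0.05 are called higher or lower. Folds are ratios of group means of normalized counts. The threshold, the 47 members and all lists were chosen with earlier results of these data known. Every member may be named; of each other list, the 3 genes with the smallest p in each tumor effect may be named.

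The settings varied were the pseudocount (5, 0.1), the filter (none, or a minimum mean of 50), the scaling (upper quartile, quantile), the variance moderation and the groups in the fit. Recovered reads were also tested with DESeq2 1.42.0 and edgeR 4.0.16. Further settings were the removal of a trend with transcript length and GC content per library (natural splines of 4 degrees of freedom), the EBi3KO tumor pair averaged, a replicate block from the title numbers, and the omission of each library. Lengths came from 1 GENCODE transcript a gene on GRCm38. Replicates of each group differed by more than sampling noise, but to unequal degrees. The chi-square per degree of freedom was 2.01 in EBi3KO tumor, 13.14 in WT tumor, 16.05 in WT nontumor and 20.3 in EBi3KO nontumor. The fit pools the spread over all groups, so the close EBi3KO tumor pair enters every comparison. The fits were tested on simulated data.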

Additional observations from a re-analysis of the deposited data

Results flagged for a closer look

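For 18 of the 47 mitosis genes the tumor effect differed between EBi3KO and WT by limma's interaction term, at an adjusted p under 0.05. Of these 7 were lower and 11 higher, against 25.4% lower and 27.5% higher among all tested genes, so the members' share with such a difference was below the background. The values are tumor effects in EBi3KO minus those in WT on the log2 scale. Lower effects in EBi3KO were found for 5 genes that rose in WT, namely Mki67 (-1.96), Cenpe (-1.59), Aspm (-1.53), Cenpf (-1.27) and Hmmr (-0.96). Of these, Mki67 rose in WT (1.54) and fell in EBi3KO (-0.41), Cenpe rose in both, and Aspm, Cenpf and Hmmr did not pass in EBi3KO. Prc1, the central spindle bundler that fell in both, and the motor Kif15, which fell in EBi3KO, had lower effects too: Kif15 (-0.81) and Prc1 (-0.68). Higher effects, which are smaller falls, were found for 11 genes: Ska1 (1.19), Cdk1 (0.95), Melk (0.84), Cdca3 (0.80), Cdc20 (0.79), Ccnb2 (0.77), Ube2c (0.73), Ccnb1 (0.68), Mad2l1 (0.67), Cenpa (0.63) and Ccna2 (0.54). All 11 fell in both genotypes. The calls of Cdc20, Ube2c, Melk, Kif15 and Ccnb1 were lost in 12, 11, 6, 5 and 4 of 22 alternative settings. Sex and title prefix cannot be told apart from these differences, since both WT tumor libraries differ from the rest in them.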

How the results depend on the processing

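Over the alternatives the median log2 difference of the members stayed between -1.32 and -1.10 for the tumor effect in WT and between -1.25 and -1.01 for that in EBi3KO. Removing the length and GC trend of each library changed the most calls of the tumor effect in WT, but not of that in EBi3KO. Under it 3 members in place of 5 were higher in WT and 0 in place of 1 in EBi3KO. Of all 12868 genes tested there, 4776 and 1831 were higher. In EBi3KO tumor 4 members in place of 8 were lower than in WT tumor (all genes: 2524 in place of 3715). The interaction had 4 lower and 7 higher in place of 7 and 11 (all genes: 2141 and 2764 in place of 3302 and 3579). In WT, Kif15 turned from 0.25 to -0.37 and Aspm from 1.16 to -0.016 under that removal. DESeq2 called 0 members higher with a tumor in EBi3KO, and 1, Mki67, higher in EBi3KO than in WT without a tumor. Over all genes it called 1613 of 12758 higher in the former comparison and 11 of 11245 in the latter. With the EBi3KO tumor libraries averaged as 1 sample, the log2 differences stayed the same. In EBi3KO they were -0.41 for Mki67 and -1.10 for Cdc20. Fewer members passed the threshold in EBi3KO in that fit, as did fewer of all tested genes. A fit of the compared groups alone gave 13 members lower in EBi3KO tumor than in WT tumor. Of all 13011 tested genes it gave 4821 lower, in place of 3715. With each library left out in turn, the members lower in EBi3KO ranged from 31 to 42 and those higher from 0 to 1, and in WT 38 to 39 were lower and 5 higher. Likewise, the genotype effect in tumor mice ranged from 6 to 10 lower and 9 to 14 higher, the interaction from 6 to 10 lower and 6 to 15 higher, and the genotype effect in nontumor mice stayed at 0 and 0. A group left with 1 library is assumed to vary like the others. The calls over all tested genes also changed in these fits, so a change in these counts is not particular to the members. Title numbers are shared by the WT groups alone, where same-numbered libraries deviated with a correlation of -0.26, so they share only a number. With that number as a replicate block 38 members were lower and 5 higher in WT, and with the numbers crossed, an alternative added after the data had been seen, also 38 and 5. Of all 13011 tested genes 5098 were lower and 5060 higher with the block, and 5290 and 5229 with the numbers crossed. For single members, 2 of 1081 values of the tumor effect in WT that passed the threshold before or after changed sign, Aspm (which also lost its call) and Kif15, and 1 further value, that of Cenpf, lost its call, all under the removal of the trend. In EBi3KO 78 of 987 values lost the call, among them Kif23 in 5 of 21 settings and Kif2c in 3. With 2 libraries a group the number of libraries limits these tests; the effect of depth was not tested.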
